A study of Mus musculus with 12 samples.

Results

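The genes described here are Ly6a, Msln, Clu, Spp1, Tnfrsf12a, Emp1 and Gja1, surface and secreted proteins used as markers of fetal-like intestinal epithelium. They were taken by symbol from the deposited gene counts, where all 7 were found among 24054 genes, and all 7 were among the 14860 genes with enough reads to be tested. The RNA libraries number 12, all of mouse colon, with 4 in each of 3 groups. BT-T is tumour of the genotype BrafV600E;Tgfbr2-/-, in which the kinase Braf is constitutively active and the TGF-beta receptor gene Tgfbr2 is lost. BTPRZ-T is tumour of the genotype BrafV600E;Tgfbr2-/-;Rnf43-/-/Znrf3-/-;p16 Ink4a-/-, which also lacks a pair of ubiquitin ligases that remove WNT receptors and a cell cycle inhibitor. N is normal colon labelled wild type. The tumours grew from engrafted colonic organoids that had been edited, and the N tissue lay beside tumours. Every library carries the strain label NSG, an immunodeficient mouse, and the labels used here give no age. Whether replicates are different animals or organoid lines is not stated in them, so the p-values measure the spread between these libraries, which may be technical in part. The Y-linked transcript Ddx3y, given below, was present in some libraries of every group and almost absent from others. The libraries of a group were therefore not all repeats of the same RNA sample.

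The adult colon epithelium is renewed from crypt stem cells marked by Lgr5. The fetal gut epithelium, and adult epithelium that regenerates after injury, express another set of genes, among them Ly6a, Clu and Tnfrsf12a, and a similar state has been described in serrated colorectal tumours. Most of these genes are not exclusive to epithelium. Ly6a (Sca-1), a GPI-anchored surface protein, is also made by endothelial and mesenchymal cells. Msln (mesothelin), a GPI-anchored adhesion protein, is made by mesothelium. Tnfrsf12a (Fn14) is the receptor of the cytokine TWEAK, the product of Tnfsf12. Emp1 is a small membrane protein of the PMP22 family, and Gja1 encodes a connexin, the subunit of gap junctions in smooth muscle and fibroblasts as well as in epithelium. Clu (clusterin) is a secreted chaperone that in mouse intestine marks rare cells that expand after injury. Spp1 (osteopontin) is a secreted phosphoprotein that binds integrins and CD44 and is also a product of macrophages and bone cells.

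Promoters of Spp1, Tnfrsf12a, Emp1 and Gja1 were matched in the RefSeq promoter table (GRCm38.p6). Windows before the first listed start site are shown for a gene called higher in both tumour groups (Spp1), for a gene whose call changed with 1 normal library and with the tool (Tnfrsf12a) and for a gene near the threshold in BT-T (Gja1), so that their motif content can be seen beside their levels. Each is written 5′ to 3′ on the strand of the gene, and bases that fall in an annotated exon were left out. Capitals mark matches on either strand to the AP-1 motif TGANTCA, the TEAD motif GGAATG or the ETS motif CCGGAA, none of which overlapped another.
Spp1, chr5:104434861-104435110, plus strand: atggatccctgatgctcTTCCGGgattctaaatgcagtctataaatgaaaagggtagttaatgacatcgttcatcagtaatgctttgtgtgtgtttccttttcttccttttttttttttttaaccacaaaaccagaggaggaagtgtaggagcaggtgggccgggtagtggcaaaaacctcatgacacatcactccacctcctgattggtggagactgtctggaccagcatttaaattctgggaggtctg
Tnfrsf12a, chr17:23677469-23677699, minus strand: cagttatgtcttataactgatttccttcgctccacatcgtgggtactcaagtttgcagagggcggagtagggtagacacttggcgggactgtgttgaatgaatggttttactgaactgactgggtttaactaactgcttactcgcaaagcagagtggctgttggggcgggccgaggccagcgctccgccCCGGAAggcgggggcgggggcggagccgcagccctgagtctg
Gja1, chr10:56377050-56377299, plus strand: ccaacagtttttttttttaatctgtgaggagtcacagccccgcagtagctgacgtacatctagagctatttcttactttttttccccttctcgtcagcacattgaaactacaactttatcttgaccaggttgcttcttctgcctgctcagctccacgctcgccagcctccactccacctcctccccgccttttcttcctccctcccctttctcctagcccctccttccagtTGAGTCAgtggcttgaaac
The Spp1 window holds an ETS match from -233 to -228 relative to the start, and the Tnfrsf12a window an ETS match from -61 to -56. The Gja1 window holds an AP-1 match from -19 to -13. The 250 bases before the first Emp1 start, which overlap an exon and are not shown, hold 2 AP-1 matches, at -145 to -139 and -25 to -19. None of these 4 genes had a TEAD match. Of 32851 promoters in the table, 6.75% held an AP-1 match in the 250 bases before the start, 12.6% a TEAD match and 12.03% an ETS match.

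Levels are CPM, the reads of a gene scaled to a common library total, after TMM scaling, which adjusts library size for composition. A gene is said to have risen or fallen, or to be called, where its Benjamini-Hochberg adjusted p over all 14860 genes was under 0.05 in edgeR's quasi-likelihood test with all 12 libraries. Each library held between 15732004 and 26052772 gene reads. N replicate 2 stood apart from its group: ribosomal protein genes made up 10.8% of its reads, where N replicates 1, 3 and 4 had 1.56 to 1.91%, and 14175 genes were detected, against 16152 to 16432. In BT-T that share was 1.83 to 2.69%, and BTPRZ-T had 3.59 to 8.98%, the highest being replicate 1. Low gene detection was not confined to N replicate 2. BTPRZ-T replicate 4 had 13450 genes, the fewest of all 12 libraries, while BTPRZ-T replicate 1 had 14697. Detection was higher for BTPRZ-T replicates 2 (16438 genes) and 3 (16131 genes), and no BT-T library fell under 16738. Results that rest on N replicate 2 are given with and without it. The 10 epithelial markers (Epcam, Cdh1, keratins and others) summed to 8946 to 10798 CPM in BT-T, 7847 to 16502 CPM in BTPRZ-T and 10796 to 12885 CPM in N. The 8 markers of T, B and natural killer cells summed to at most 2.84 CPM in any library, and Cd3g, Cd3d, Ncr1 and Rag1 had no read. Cdkn2a, the gene of p16 Ink4a, stood at 8.21 to 15.8 CPM in BT-T, 18.8 to 31.4 CPM in BTPRZ-T and 0.230 to 0.354 CPM in N, and Tgfbr2 at 314 to 527, 149 to 271 and 71.1 to 286 CPM. These are counts over whole genes and cannot show the edits. The Y-linked transcript Ddx3y was at 12.7 to 47.6 CPM in 7 libraries (BT-T 2 to 4, BTPRZ-T 2 and N 1 to 3) and near 0 in the other 5, so sex was not balanced over the groups. Xist, the transcript of the inactive X chromosome, was at 95.8 to 730.4 CPM in the 4 tumour libraries with Ddx3y and at 1.09 to 16.6 CPM in the 3 such N libraries, so these tumour libraries carried both Xist and a Y-linked transcript. The part of sex in the results was not tested.

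In both tumour groups Ly6a, Msln, Clu and Spp1 rose against N, while Tnfrsf12a, Emp1 and Gja1 were not called. Thus 4 of 7 were called higher in BT-T, where 5.67% of all genes were, and the same 4 in BTPRZ-T, where 5.66% of all genes were. Every BT-T library lay above every N library for these 4 and for Gja1, against 13.4% of all genes. Every BTPRZ-T library lay above every N library for the 4, against 6.88% of all genes. The median log2 fold change of the 7 was 2.31 in BT-T and 3.24 in BTPRZ-T, beside -0.10 over all genes in each comparison. The comparisons share the N libraries. Together the 7 genes took 0.298 to 0.532% of gene reads in BT-T, 0.511 to 0.684% in BTPRZ-T and 0.0506 to 0.109% in N.

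**Figure D1:**
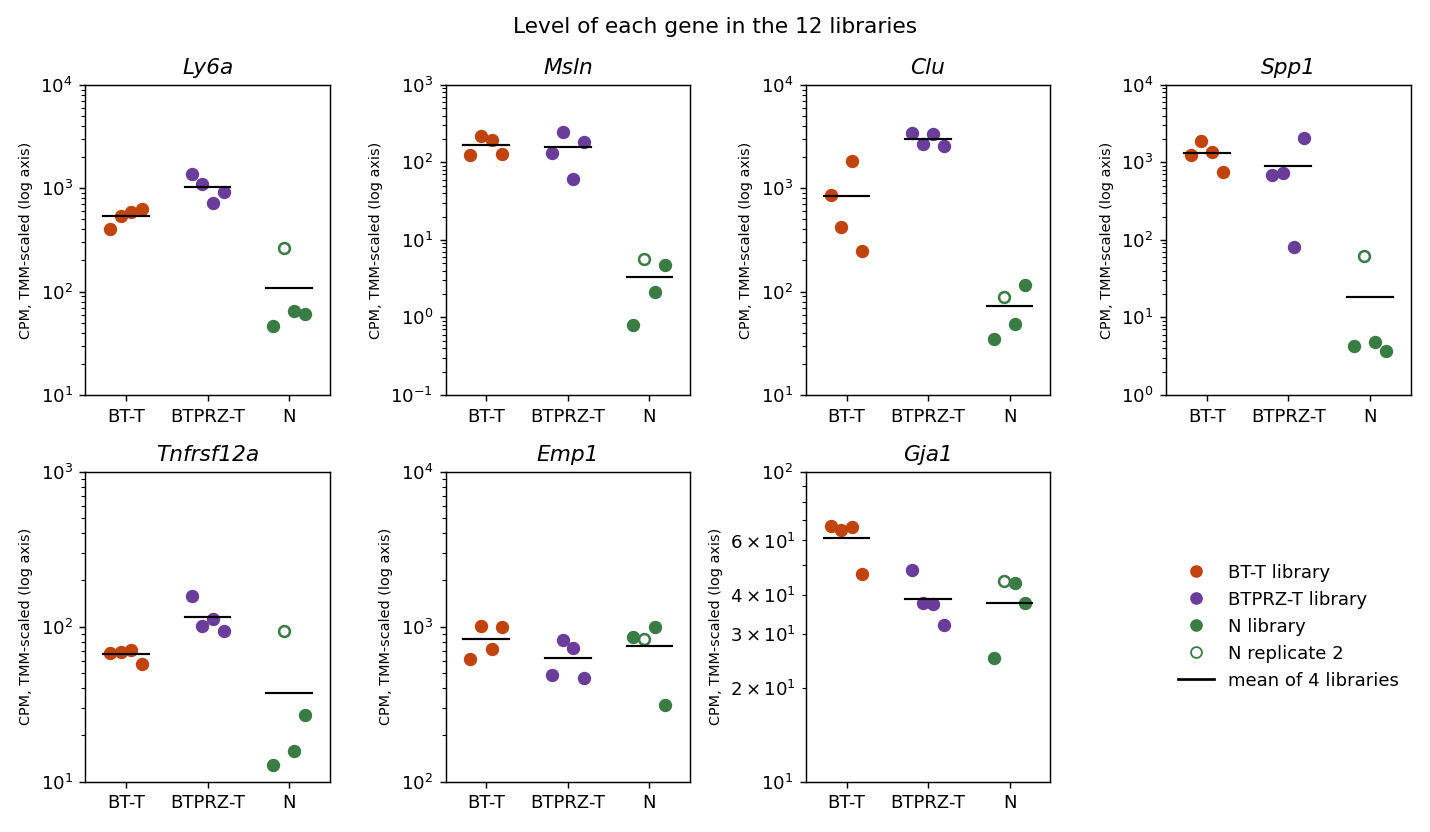
CPM after TMM scaling (log axes, ranges differ by panel) of each of the 7 genes in BT-T, BTPRZ-T and N. Points are libraries, bars are means of 4, and the open circle is N replicate 2, which lies above the other N libraries for Ly6a (264.6 CPM), Spp1 (61.5 CPM) and Tnfrsf12a (93.9 CPM).

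Among the surface proteins, Ly6a (chromosome 15, 74994877 to 74998031, minus strand, GRCm38) stood at 405, 542, 592 and 627 CPM in BT-T replicates 1 to 4, at 1362, 1109, 721 and 928 CPM in BTPRZ-T, and at 46.6, 264.6, 64.7 and 60.6 CPM in N. Every tumour library lay above every N library, and N replicate 2 was the highest of N. The log2 fold change was 2.31 ± 0.51 for BT-T against N (± SE, adjusted p = 0.0159) and 3.24 ± 0.53 for BTPRZ-T against N (adjusted p = 0.00245). Without N replicate 2 the fold changes were 3.24 ± 0.27 and 4.17 ± 0.29. Of the 1311 stretches of 100 bases in Ly6a transcripts, 19 also occur in the neighbouring family member Ly6c1, and reads placed at several loci are not in the counts. The 8 endothelial markers summed to 449.8 to 816 CPM in BT-T, 332 to 651 CPM in BTPRZ-T and 163 to 316 CPM in N. Of them 3 rose in BT-T and 2 in BTPRZ-T, beside 5.67% and 5.66% of all genes, and the others were not called. Per 100 CPM of these markers Ly6a stood at 66.3 to 89.9 CPM in BT-T, 143 to 367 CPM in BTPRZ-T and 15.2 to 162 CPM in N, where N replicate 2 gave the highest value. In such tissue samples a change in the number of cells of a type and a change in RNA per cell cannot be told apart. The part of endothelial cells in the Ly6a level was not tested.

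Msln (chromosome 17, 25748613 to 25754378, minus strand) stood at 125, 220.2, 194 and 129 CPM in BT-T, at 131, 249.0, 60.6 and 186 CPM in BTPRZ-T, and at 0.806, 5.75, 2.13 and 4.72 CPM in N. It was low in every N library, and even its lowest tumour library, BTPRZ-T replicate 3, was far above them. The log2 fold change was 5.64 ± 0.64 in BT-T (adjusted p = 0.000495) and, for BTPRZ-T, 5.55 ± 0.63 (adjusted p = 0.000384). The 6 mesothelial markers summed to 13.4 to 67.3 CPM in BT-T, 4.10 to 18.0 CPM in BTPRZ-T and 5.07 to 22.3 CPM in N. Of the 5 that could be tested none was called higher in BT-T or BTPRZ-T, beside 5.67% and 5.66% of all genes. In so few genes this is near that share. In BTPRZ-T 1 fell, Lrrn4, beside 6.18% of all genes. Lrrn4 had 48 reads in the 4 BT-T libraries, 1 in BTPRZ-T and 133 in N, and Upk3b had 172, 28 and 220, while Upk1b had 1840, 664 and 277 and Wt1 had 760, 120 and 39. Per 100 CPM of epithelial markers Msln stood at 1.16 to 2.46 CPM in BT-T, 0.368 to 2.37 CPM in BTPRZ-T and 0.00693 to 0.0446 CPM in N. The part of mesothelial cells in the Msln level was not tested.

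Tnfrsf12a (chromosome 17, 23675445 to 23677468, minus strand) stood at 67.9, 68.7, 71.2 and 57.8 CPM in BT-T, at 157, 101, 112 and 93.1 CPM in BTPRZ-T, and at 12.8, 93.9, 15.7 and 26.9 CPM in N. All 8 tumour libraries lay above N replicates 1, 3 and 4, but N replicate 2 lay above all of BT-T and above the lowest BTPRZ-T library. The gene was not called in BT-T (log2 fold change 0.83 ± 0.51, adjusted p = 0.346) or in BTPRZ-T (1.64 ± 0.52, adjusted p = 0.0624). Without N replicate 2 it was called in both, at 1.85 ± 0.27 in BT-T (adjusted p = 0.00114) and, for BTPRZ-T, 2.65 ± 0.28 (adjusted p = 0.000101), where 13.5% and 32.3% of all genes were called. With all libraries it was called in BTPRZ-T by limma voom (2.12 ± 0.47, adjusted p = 0.0121), by limma voom with sample quality weights (2.79 ± 0.18, adjusted p = 2.44e-07) and in edgeR with a trend with transcript length removed (1.80 ± 0.38, adjusted p = 0.00765). In BT-T it was called by limma voom with sample quality weights (2.16 ± 0.18, adjusted p = 1.12e-06). The sample quality weights gave calls for 41.4% of all genes in BT-T and 55.3% in BTPRZ-T.

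Emp1 (chromosome 6, 135362545 to 135383173, plus strand) was abundant in normal colon, where its mean CPM ranked 153 of 14860 genes. It stood at 617, 1007, 721 and 995 CPM in BT-T, at 489, 817, 732 and 464 CPM in BTPRZ-T, and at 856, 838, 989.5 and 312 CPM in N. The groups overlapped, and N replicate 4 was the lowest of the 12 libraries. The log2 fold change was 0.16 ± 0.36 in BT-T (adjusted p = 0.843) and, for BTPRZ-T, -0.26 ± 0.36 (adjusted p = 0.729), and Emp1 was not called under any of the other settings tried.

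Gja1 (chromosome 10, 56377330 to 56402513, plus strand) stood at 66.6, 64.9, 66.2 and 46.8 CPM in BT-T, at 48.0, 37.7, 37.3 and 31.9 CPM in BTPRZ-T, and at 25.0, 44.5, 43.9 and 37.7 CPM in N. Every BT-T library lay above every N library, and BTPRZ-T overlapped N. The log2 fold change was 0.69 ± 0.23 in BT-T (adjusted p = 0.0885) and, for BTPRZ-T, 0.04 ± 0.23 (adjusted p = 0.952). Without N replicate 2 it was called in BT-T (0.78 ± 0.22, adjusted p = 0.0369) and not in BTPRZ-T (0.12 ± 0.22, adjusted p = 0.686). With all libraries DESeq2 called it in BT-T (0.67 ± 0.25, adjusted p = 0.048), as did limma voom with sample quality weights (1.01 ± 0.17, adjusted p = 0.000318), while removing the trend with transcript length left a log2 fold change of 0.18 ± 0.39 (adjusted p = 0.78). The 7 smooth muscle markers summed to 3469 to 5673 CPM in BT-T, 433 to 4725 CPM in BTPRZ-T and 6825 to 18778 CPM in N. The 10 fibroblast markers summed to 8704 to 16982 CPM in BT-T, 1896 to 8608 CPM in BTPRZ-T and 1263 to 2049 CPM in N. Of the 10, 8 rose in BT-T and 4 in BTPRZ-T, beside 5.67% and 5.66% of all genes. The part of either cell type in the Gja1 level was not tested.

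Of the secreted proteins, Clu (chromosome 14, 65968483 to 65981547, plus strand) stood at 867, 419, 1818 and 249.1 CPM in BT-T, at 3435, 2702, 3349 and 2544 CPM in BTPRZ-T, and at 34.8, 89.1, 48.4 and 117 CPM in N. Tumour libraries all lay above N. The highest BT-T library was 7.30 times the lowest, while BTPRZ-T libraries lay within 1.35 times of each other. The log2 fold change was 3.54 ± 0.61 in BT-T (adjusted p = 0.00383) and, for BTPRZ-T, 5.38 ± 0.66 (adjusted p = 0.000559). Without BT-T replicate 3, the highest of BT-T, the BT-T value was 2.83 ± 0.50 (adjusted p = 0.00958). By mean CPM Clu ranked 76 of 14860 genes in BT-T, 11 in BTPRZ-T and 3497 in N. Per 100 CPM of epithelial markers it stood at 2.42 to 17.8 CPM in BT-T, 16.95 to 32.4 CPM in BTPRZ-T and 0.299 to 0.987 CPM in N.

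Spp1 (chromosome 5, 104435118 to 104441050, plus strand) stood at 1249.7, 1866, 1383 and 762 CPM in BT-T, at 688, 720.2, 80.1 and 2072 CPM in BTPRZ-T, and at 4.32, 61.5, 4.79 and 3.71 CPM in N. Every tumour library lay above every N library, but BTPRZ-T replicate 3 came close to N replicate 2. The log2 fold change was 6.15 ± 1.21 in BT-T (adjusted p = 0.00774) and, for BTPRZ-T, 5.58 ± 1.18 (adjusted p = 0.00973), and without N replicate 2 it was 8.26 ± 1.01 and 7.70 ± 0.99. Without BTPRZ-T replicate 4, the highest of BTPRZ-T, the BTPRZ-T value was 4.76 ± 1.12 (adjusted p = 0.0212). With BTPRZ-T and N alone in the fit the adjusted p was 0.0503. Of 1915 stretches of 100 bases in Spp1 transcripts, 112 also occur in the overlapping annotation Gm42793.

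Macrophage markers were higher in tumours, as Spp1 was, but within groups the libraries did not all keep 1 order. The 12 markers, such as Csf1r, Cd68 and Lyz2, summed to 1199 to 2280.1 CPM in BT-T, 415 to 4092 CPM in BTPRZ-T and 206 to 676 CPM in N. In each tumour group 6 of the 12 rose, beside 5.67% of all genes in BT-T and 5.66% in BTPRZ-T. BTPRZ-T replicate 3 had the lowest macrophage sum and the lowest Spp1 of the tumour libraries, BTPRZ-T replicate 4 the highest of both, and N replicate 2 the highest of both within N. In BT-T, replicate 4 had the lowest Spp1 (762 CPM) with a macrophage sum of 1858 CPM, above the 1199 CPM of replicate 1, where Spp1 was at 1249.7 CPM. BTPRZ-T replicate 1 had a higher sum than BTPRZ-T replicate 2 (1218 and 718 CPM) with the lower Spp1, and N replicate 4 had the next highest sum in N (453 CPM) with the lowest Spp1. Per 100 CPM of macrophage markers Spp1 stood at 41.0 to 104 CPM in BT-T, 19.3 to 100.3 CPM in BTPRZ-T and 0.820 to 9.10 CPM in N, with no overlap between tumour and N libraries. The 6 bone cell markers summed to 18.9 to 23.4 CPM in BT-T, 9.03 to 31.2 CPM in BTPRZ-T and 4.37 to 7.08 CPM in N. Most of that came from Runx2, which rose in BT-T (3.31, adjusted p = 0.00383) and BTPRZ-T (2.39, adjusted p = 0.0151), and from Alpl, which was not called; both are also expressed outside bone. The other 4 were near 0, with 7 reads of Bglap in BT-T, 0 in BTPRZ-T and 3 in N, 5, 7 and 5 reads of Sp7, 6, 0 and 3 of Phex, and 9, 0 and 0 of Dlx5. The 6 neutrophil markers summed to 20.3 to 65.3 CPM in BT-T, 10.9 to 62.0 CPM in BTPRZ-T and 1.18 to 20.8 CPM in N. The part of macrophages or of these other cells in the Spp1 level was not tested.

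**Figure D2:**
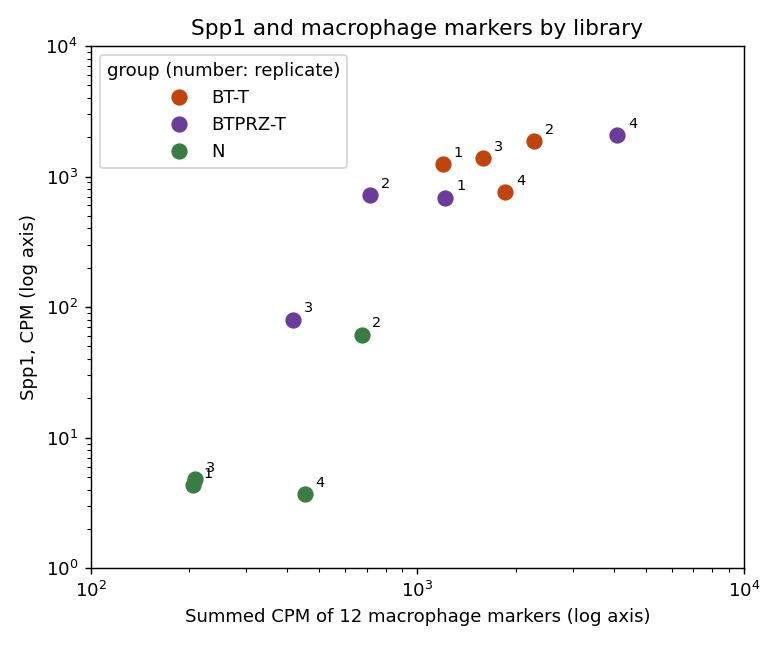
Spp1 (CPM, log axis) against the summed CPM of 12 macrophage markers (log axis), 1 point per library, coloured by group and numbered by replicate. BTPRZ-T replicates 3 and 4 lie at 415 and 4092 CPM of macrophage markers, with 80.1 and 2072 CPM of Spp1, and N libraries lie at 3.71 to 61.5 CPM of Spp1.

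Between the tumour genotypes no member was called with all 12 libraries in the edgeR fit, where 0.754% of all genes were. At an unadjusted p under 0.05 there were 2, Clu (higher in BTPRZ-T) and Gja1 (lower), where 17.3% of all genes were, while DESeq2 called 1, Clu, with 8.19% of all genes, and limma with voom called 0, with 1.79%. Clu averaged 3007 ± 450.0 CPM in BTPRZ-T and 838 ± 703 CPM in BT-T (SD, n = 4 each), a log2 fold change of 1.84 ± 0.57 (adjusted p = 0.137 in edgeR, and 2.55 ± 0.54 with adjusted p = 0.0662 without BT-T replicate 3). Ly6a averaged 1030.0 ± 272 CPM in BTPRZ-T and 541 ± 97.5 CPM in BT-T, a log2 fold change of 0.93 ± 0.49 (adjusted p = 0.351 in edgeR). Tnfrsf12a averaged 116 ± 28.6 CPM in BTPRZ-T and 66.4 ± 5.91 CPM in BT-T, a log2 fold change of 0.80 ± 0.51 (adjusted p = 0.432 in edgeR). For these 3 genes every BTPRZ-T library lay above every BT-T library, as in 11.5% of all genes. Gja1 averaged 38.7 ± 6.71 CPM in BTPRZ-T and 61.1 ± 9.60 CPM in BT-T, a log2 fold change of -0.66 ± 0.23 (adjusted p = 0.182 in edgeR), and 3 of 4 BTPRZ-T libraries lay below all of BT-T. The log2 fold changes of Msln (-0.09 ± 0.52), Spp1 (-0.56 ± 0.97, and -1.44 ± 1.06 without BTPRZ-T replicate 4) and Emp1 (-0.42 ± 0.36) were not called, and their libraries overlapped.

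These calls changed without N replicate 2. That library enters the comparison of tumours through the gene filter, the TMM scaling, the shared estimate of spread and the adjustment over all genes. The part of each was not tested. Without N replicate 2, 4 members were called, at fold changes that differed by less than their SE from those above. Ly6a (0.93 ± 0.22, adjusted p = 0.018), Clu (1.84 ± 0.55, adjusted p = 0.0398) and Tnfrsf12a (0.80 ± 0.23, adjusted p = 0.0347) were higher in BTPRZ-T, and Gja1 (-0.66 ± 0.20, adjusted p = 0.0432) was lower. With the BTPRZ-T and BT-T libraries alone in the fit, Ly6a (adjusted p = 0.0495), Tnfrsf12a (adjusted p = 0.0356) and Gja1 (adjusted p = 0.0356) were called, and Clu had an adjusted p of 0.0602. The share of all genes called was 0.754% with all libraries, 18% without N replicate 2 and 10.8% with the tumour groups alone.

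**Figure D3:**
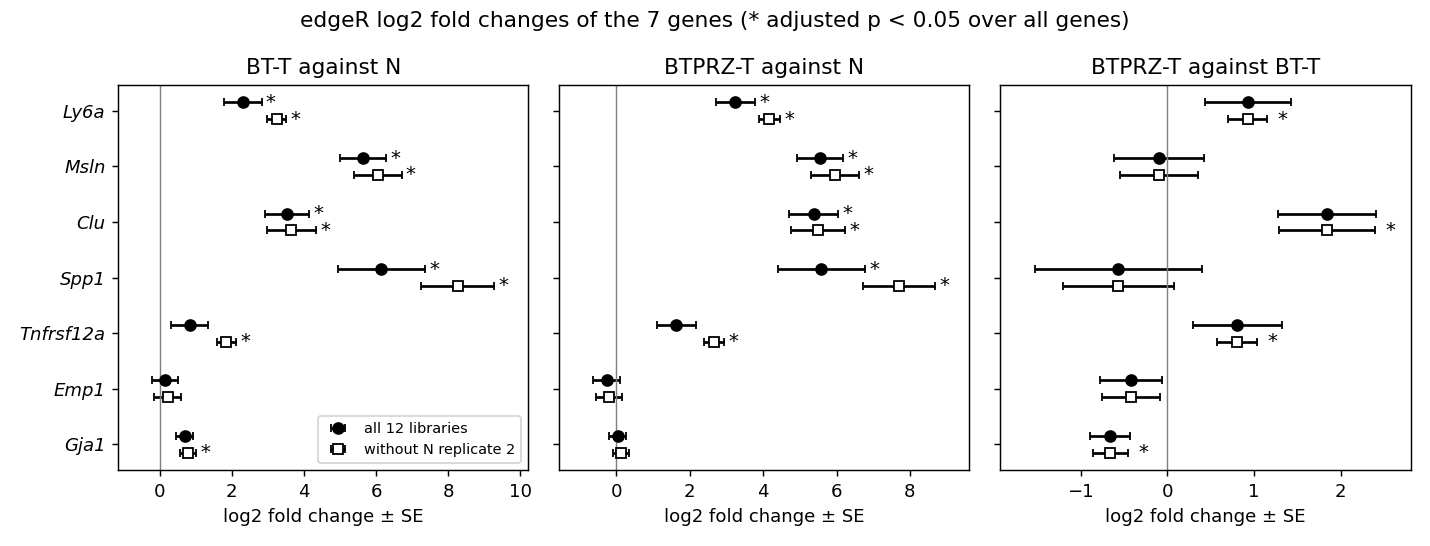
edgeR log2 fold changes ± SE of the 7 genes in the 3 comparisons, with all 12 libraries (filled circles) and without N replicate 2 (open squares). Asterisks mark an adjusted p under 0.05. Without that library Tnfrsf12a is called in both tumour groups against N (1.85 and 2.65), and 4 genes are called between the tumour groups.

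Per kilobase of exon, the scale on which levels of different genes can be compared, Spp1 led in BT-T with a mean of 798 CPM per kb, followed by Ly6a (449), Clu (244), Emp1 (141), Msln (54.5), Tnfrsf12a (34.4) and Gja1 (5.96). Library ranges overlapped between neighbours from Spp1 down to Emp1, and were separate between Emp1, Msln, Tnfrsf12a and Gja1. In BTPRZ-T, Clu led with 875 CPM per kb, followed by Ly6a (855), Spp1 (540.2), Emp1 (105), Tnfrsf12a (60.1), Msln (51.1) and Gja1 (3.78), and of these neighbours Msln and Gja1 alone did not overlap. In N, Emp1 led with 126 CPM per kb, followed by Ly6a (90.6), Clu (21.0), Tnfrsf12a (19.3), Spp1 (11.3), Gja1 (3.68) and Msln (1.09). There Ly6a did not overlap Clu, nor Gja1 Msln, and the other neighbours overlapped. Without N replicate 2 the N means were 47.6 CPM per kb for Ly6a, 9.54 for Tnfrsf12a and 2.59 for Spp1, which then stood below Gja1 (3.46) with overlapping libraries, and the order was otherwise kept. Msln, last in N, thus stood above Tnfrsf12a per kilobase in BT-T.

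The members differed in pattern among themselves. Likeness was taken as the root mean square difference in log2 CPM over the 12 libraries after each gene's own mean was taken off, so that it takes in the size of a gene's variation as well as its shape. Genes that vary little, such as Emp1 (SD 0.52 in log2 CPM) and Gja1 (0.43), therefore lie near each other whatever their shape, so their value of 0.59, above either SD, is no sign of a shared pattern. Of the other pairs among the 7, Ly6a and Tnfrsf12a were nearest (0.75), and Spp1 and Emp1 were farthest apart (3.40). Candidates were 11347 genes with a mean over all libraries of 5 CPM or more, with predicted genes and clone-type symbols left out. Of these, the nearest to Ly6a were S100a11 (0.29) and Tnfrsf11b (0.37), and the nearest to Tnfrsf12a were S100a14 (0.26) and Eva1c (0.30). Msln was nearest to Gabrp (0.56) among the genes reported here. Clu was nearest to Cdkn2a (0.78) and Vill (0.79), and Spp1 to Mmp12 (0.82), which encodes a macrophage metalloelastase, and Ltbp2 (0.85). Cdkn2a, an edited gene in BTPRZ-T, was at 0.230 to 0.354 CPM in N, under the 0.5 CPM added before logs were taken. Among genes that also vary little, Emp1 was nearest to L3mbtl3 (0.33) and Mxd4 (0.35), and Gja1 to Epn2 (0.17) and Itgb1 (0.25).

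A wider list of fetal-like and regenerating epithelium held 20 other genes that are reported here, of which 18 could be tested and Anxa10 and Igf2bp3 had at most 8 reads in a group. Of the 18, 7 rose in BT-T and 9 in BTPRZ-T, beside 5.67% and 5.66% of all genes. None fell, which is near the share over all genes, 2.9% in BT-T and 6.18% in BTPRZ-T. The median log2 fold change of the 18 was 1.44 in BT-T and 1.51 in BTPRZ-T, beside -0.10 over all genes. Without N replicate 2, 12 of them were higher in BT-T and 14 in BTPRZ-T, where 13.5% and 32.3% of all genes were called in either direction. Those called in both groups were 6: Krt4, Marcksl1, Krt7, Ly6d, Anxa8 and F3. Krt4, a keratin of stratified epithelium, rose on the log2 scale by 6.67 ± 0.70 in BT-T (adjusted p = 0.000325 in edgeR) and by 6.55 ± 0.70 in BTPRZ-T (adjusted p = 0.000272), with 7.80 to 25.0 CPM in BT-T, 3.68 to 25.0 CPM in BTPRZ-T and 0.115 to 0.203 CPM in N. Krt7, a keratin of simple duct epithelium, rose by 2.42 ± 0.34 in each group, and Marcksl1 by 2.00 ± 0.25 in BT-T and 1.90 ± 0.25 in BTPRZ-T. These 3 genes kept their calls in both groups with any 1 library left out, as did Ly6d and Anxa8.

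Other calls on that list were less stable. Cldn4, called in BT-T alone, lost its call without BT-T 2, BT-T 3, N 1 or N 3 (adjusted p = 0.0535 to 0.064), and F3 lost its call in BT-T without BT-T 2, 3 or 4 or N 1 or 3 (adjusted p = 0.0539 to 0.0732). Anxa1, an annexin of injured epithelium, averaged 630.2 ± 99.3 CPM in BT-T, 982 ± 308 CPM in BTPRZ-T and 268 ± 281 CPM in N, with 688.6 CPM in N replicate 2 and 116 to 146 CPM in the others. It was called in BTPRZ-T (log2 fold change 1.88 ± 0.55, adjusted p = 0.0441) and not in BT-T (1.24 ± 0.54, adjusted p = 0.185). The BTPRZ-T call was lost when any 1 of 10 libraries was left out (adjusted p = 0.0632 to 0.119), and without N replicate 2 Anxa1 was called in BT-T as well (adjusted p = 0.000383). Sprr1a, called in BTPRZ-T alone, lost its call with any 1 of 9 libraries left out (adjusted p = 0.0627 to 0.128). Vsig1, a junction protein of gastric epithelium, rose in BTPRZ-T (3.12 ± 0.54, adjusted p = 0.00329) and had a log2 fold change of 0.91 ± 0.51 in BT-T (adjusted p = 0.293). Between the tumour groups none of the 18 was called in edgeR and 4 had an unadjusted p under 0.05, beside 0.754% and 17.3% of all genes. DESeq2 called 2, beside 8.19% of all genes. Without N replicate 2, 3 were called, beside 18% of all genes, and without BTPRZ-T 4, 1 was called.

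**Figure D4:**
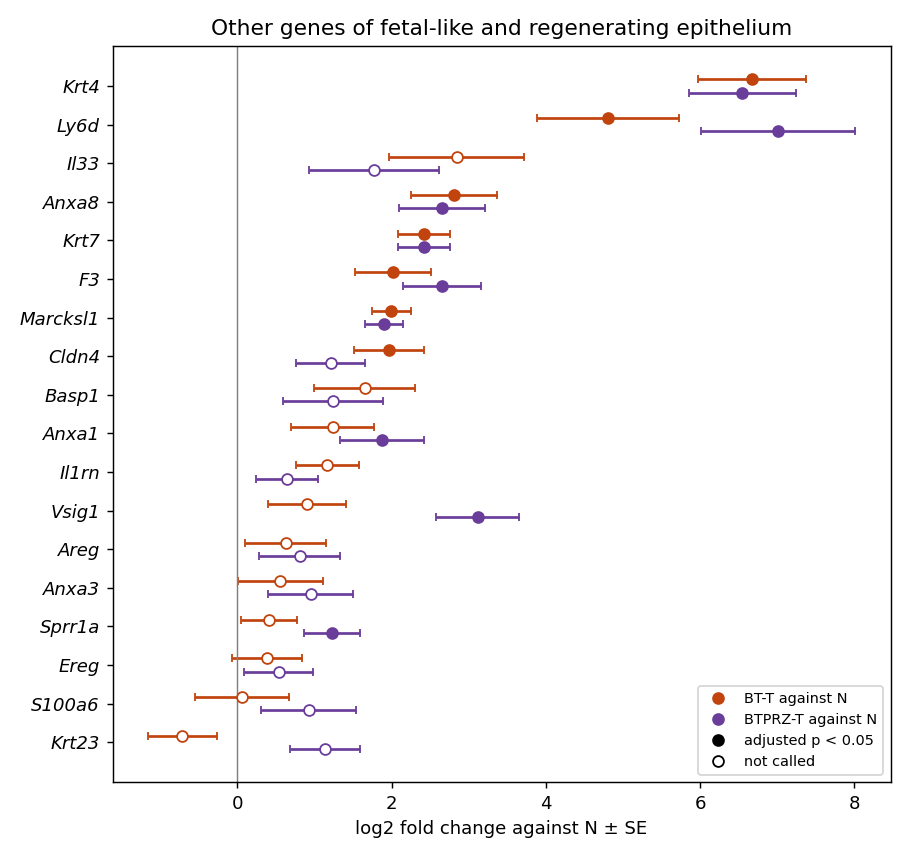
edgeR log2 fold change against N ± SE of 18 tested genes of the wider fetal-like list, BT-T above BTPRZ-T for each gene. Filled points have an adjusted p under 0.05 over all genes, 7 in BT-T and 9 in BTPRZ-T, and open points were not called.

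Of 17 tested binding partners and adaptors of the members, 2 rose and 1 fell in BT-T, and 2 rose in BTPRZ-T, beside 5.67% of all genes higher and 2.9% lower in BT-T and 5.66% and 6.18% in BTPRZ-T, so these few calls are near the share over all genes. The ligand of Tnfrsf12a, Tnfsf12, averaged 12.7 ± 3.67 CPM in BT-T, 10.2 ± 7.84 CPM in BTPRZ-T and 9.02 ± 2.26 CPM in N, and was not called (adjusted p = 0.581 and 0.873 against N). Cd44, a receptor of Spp1, stood at 247, 331, 390.4 and 214 CPM in BT-T, 363, 417, 535 and 449 CPM in BTPRZ-T and 152, 151, 209 and 107 CPM in N. It rose in BTPRZ-T (1.51 ± 0.28, adjusted p = 0.00415), and in BT-T its log2 fold change was 0.94 ± 0.27 (adjusted p = 0.0529, and 0.0419 to 0.0464 without BTPRZ-T 4, N 2 or N 3). Itgav, an integrin chain that binds Spp1, was not called (1.23 ± 0.45 in BT-T and 0.23 ± 0.44 in BTPRZ-T). Another such chain, Itgb5, rose in BT-T (1.47 ± 0.36, adjusted p = 0.0263), a call lost without BT-T 2, 3 or 4 or N 1 (adjusted p = 0.0535 to 0.0719). Trem2, a receptor of macrophages that binds clusterin, rose in BTPRZ-T (4.03 ± 0.94, adjusted p = 0.0164, and 3.05 to 4.70 with 1 library left out) and in BT-T (3.45 ± 0.92, adjusted p = 0.0376), where leaving out any 1 of 9 libraries ended the call (adjusted p = 0.0501 to 0.0891). Traf1, a signalling adaptor, fell by 2.22 ± 0.62 on the log2 scale in BT-T (adjusted p = 0.0443), and lost the call with any 1 of 7 libraries left out (adjusted p = 0.0574 to 0.122). Partners called in BT-T numbered 0 without BT-T 2, 3 or 4 or N 1, 1 without BT-T 1 or BTPRZ-T 1, and 5 without N 2 (4 higher, 1 lower), and in BTPRZ-T 6 without N 2 (2 higher, 4 lower) and 4 without N 4 (3 higher, 1 lower). Without N 2, 13.5% of all genes were called in BT-T and 32.3% in BTPRZ-T. Between the tumour groups 0 partners were called in edgeR and 6 had an unadjusted p under 0.05, beside 0.754% and 17.3% of all genes. DESeq2 called 3, beside 8.19% of all genes. Without N replicate 2, 6 were called (1 higher, 5 lower), beside 18% of all genes. Muc16, the binding partner of mesothelin, was not analysed here.

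Among 21 tested relatives of the members, 6 rose in BT-T and 5 in BTPRZ-T, and none fell. Of all genes 5.67% rose and 2.9% fell in BT-T, and 5.66% and 6.18% in BTPRZ-T. The lack of falls is thus near the share over all genes. Without N 4, 9 were higher and 1, Gjb1, was lower in BT-T. Without N 2, 6 were higher and 2, Pmp22 and Tnfrsf11a, were lower in BTPRZ-T, where 32.3% of all genes were called in either direction. In each of these fits 22 could be tested. Those that rose were led by Ly6e, Ly6c1 and Ly6d of the LY6 family, whose genes lie beside Ly6a. Ly6d is also counted on the wider list above. Of the same family, Ly6c2 was not called (adjusted p = 0.288 in BT-T and 0.557 in BTPRZ-T). Ly6k, with at most 27 reads in a group, was not tested. Ly6e averaged 796 ± 248 CPM in BT-T, 1917 ± 208 CPM in BTPRZ-T and 101 ± 22.1 CPM in N, with log2 fold changes of 2.97 ± 0.31 (adjusted p = 0.000302) and 4.24 ± 0.32 (adjusted p = 7.21e-05). Ly6c1 rose by 3.12 ± 0.49 in BT-T (adjusted p = 0.00237) and, for BTPRZ-T, 3.82 ± 0.50 (adjusted p = 0.000741) on the log2 scale. Ly6d, an epithelial member of the family, rose by 4.80 ± 0.92 in BT-T (adjusted p = 0.00689, and 4.40 to 6.48 with 1 library left out) and, for BTPRZ-T, 7.01 ± 1.00 (adjusted p = 0.00118, and 6.52 to 8.69). Tnfrsf11b (osteoprotegerin), a decoy receptor of the family of Tnfrsf12a, rose by 2.44 ± 0.51 in BT-T (adjusted p = 0.0106, and 2.15 to 3.17 with 1 library left out) and, for BTPRZ-T, 3.32 ± 0.53 (adjusted p = 0.00198, and 3.03 to 4.05). Emp2, a relative of Emp1, stood at 195 to 237 CPM in BT-T, 171 to 221 CPM in BTPRZ-T and 96.5 to 131 CPM in N. It was called in BT-T (0.91 ± 0.20, adjusted p = 0.0124) and also in BTPRZ-T (0.75 ± 0.20, adjusted p = 0.0258), where leaving out any 1 of 5 libraries ended the call (adjusted p = 0.0509 to 0.0789). Emp3 was not called (adjusted p = 0.557 and 0.549), though it was without N replicate 2 (adjusted p = 0.0345 and 0.0176).

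Of the connexins, Gja4 rose in BT-T (1.56 ± 0.36, adjusted p = 0.0174), a call lost without BT-T 2 or BT-T 4 (adjusted p = 0.0525 to 0.066). The epithelial connexins Gjb1 and Gjb2 were not called: the log2 fold change of Gjb1 was -1.36 ± 0.42 in BT-T and -0.64 ± 0.42 in BTPRZ-T, and that of Gjb2 was 0.05 ± 0.22 in BT-T and -0.09 ± 0.22 in BTPRZ-T. Between the tumour groups 0 relatives were called in edgeR and 3 had an unadjusted p under 0.05, beside 0.754% and 17.3% of all genes. DESeq2 called 1, beside 8.19% of all genes. Without N replicate 2, 2 were called, beside 18% of all genes. Of these, 1 was Ly6e (adjusted p = 0.00782, against 0.066 with all libraries). None of these counts is above the share over all genes.

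The crypt stem cell markers, 10 genes, were set beside the members as the adult counterpart. Smoc2, an Lgr5 stem cell gene that fibroblasts also express, rose in BT-T (1.43 ± 0.31, adjusted p = 0.0141) and also in BTPRZ-T (2.25 ± 0.32, adjusted p = 0.00116), and the BT-T call was lost without BT-T 2 or N 1 (adjusted p = 0.0501 and 0.0507). Lgr5 stood at 30.8, 23.4, 23.0 and 21.7 CPM in BT-T, at 30.1, 30.5, 37.0 and 75.2 CPM in BTPRZ-T, and at 21.8, 16.4, 17.01 and 25.0 CPM in N. It was called in BTPRZ-T (1.11 ± 0.31, adjusted p = 0.0377), which leaving out any 1 of 7 libraries ended (adjusted p = 0.0511 to 0.101), and not in BT-T (0.30 ± 0.31, adjusted p = 0.603). Rgmb fell by 1.45 ± 0.37 in BTPRZ-T (adjusted p = 0.0238), a call lost with any 1 of 4 libraries left out (adjusted p = 0.0572 to 0.073). The other 7 markers were not called against N. Of all genes 5.67% rose and 2.9% fell in BT-T, and 5.66% and 6.18% in BTPRZ-T. Calls in BT-T numbered 0 without BT-T 2 or N 1 and 3 without N 2 (1 higher, 2 lower), and in BTPRZ-T 1 without N 1 or N 3. Without N 2, 13.5% of all genes were called in BT-T. The median log2 fold change of the 10 was -0.0019 in BT-T and 0.38 in BTPRZ-T, beside -0.10 over all genes. Between the tumour groups 0 were called in edgeR and DESeq2, beside 0.754% and 8.19% of all genes. At an unadjusted p under 0.05 in edgeR there were 5, beside 17.3% of all genes. Without N replicate 2, 4 were called (3 higher, 1 lower), beside 18% of all genes. Markers of differentiated colonocytes, 6 genes, summed to 465 to 1839 CPM in BT-T, 297 to 1342 CPM in BTPRZ-T and 2713 to 6011 CPM in N. Of these 6, 5 fell in each tumour group, beside 2.9% of all genes in BT-T and 6.18% in BTPRZ-T.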

How the data were processed

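RNA was sequenced from 12 libraries (BT-T, BTPRZ-T and N, 4 each). Per the labels' protocols, a stranded poly(A) kit and single reads of 100 bases were used. Per the submitters' processing notes, bcl2fastq 2.20, STAR 2.4.2a with mm10, edgeR 3.16.5, limma and HTSeq were used; the annotation behind the symbols is not stated there. The authors deposited raw counts per gene and library, without normalization and with 0 multiply placed reads. The stranded column 4 was used (reads on the opposite strand came to 0.819 to 0.994% of it), and the 4 summary rows were left out of library sizes (unassigned to a gene: 9.58 to 14.7% without a feature, 0.441 to 1.14% ambiguous).

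Genes were kept by filterByExpr, scaled by TMM and fitted with edgeR 4.0.16 (R 4.3.3; robust glmQLFit, glmQLFTest, 1 mean per group, two-sided, Benjamini-Hochberg over 14860 genes). SE is the absolute log2 fold change over the root of F. Positions and exon lengths are from GENCODE M21 (GRCm38). DESeq2 1.42.0 and limma 3.58.1 were alternatives, beside other scalings, filters and libraries left out. The fit was tested on simulated data. Members and lists were chosen with earlier results of these data known. Named are all members, up to 4 called genes per list and comparison with the lowest adjusted p, 12 genes taken without regard to values, and the 2 nearest genes of each member. A few genes these choices would name are not reported here and were left out of the lists and their counts after results were known. Anxa8, F3, Cldn4, Vsig1, Sprr1a, Gja4, Pmp22, Tnfrsf11a, Ly6c2 and Ly6k were named after their values were seen.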

Additional observations from a re-analysis of the deposited data

Results flagged for a closer look

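In groups of 4, a library was flagged where its gap to the nearest of the others, divided by the range of the group, was above Dixon's critical value. Of 21 combinations of member and group 3 were flagged, and chance flags about 1 in 20. Ly6a stood at 264.6 CPM in N replicate 2 (gap over range 0.917), with the other N libraries at 46.6 to 64.7 CPM. Spp1 stood at 61.5 CPM in the same library (0.981), with the others at 3.71 to 4.79 CPM. Gja1 stood at 46.8 CPM in BT-T replicate 4 (0.912), with the other BT-T libraries at 64.9 to 66.6 CPM. N replicate 2 also had 10.8% of its gene reads in ribosomal protein genes and macrophage markers at 676 CPM, against 206 to 453 CPM in the other N libraries. Its slope of log2 CPM on log2 exon length was -0.605, against 0.155 to 0.231 in the others. Ly6a (1.2 kb of exon) and Spp1 (1.65 kb) were the shortest members. The part of these traits in the Ly6a and Spp1 levels was not tested.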

How the results depend on the processing

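Over 25 other settings Msln, Clu and Ly6a were called against N in both tumour groups, as was Spp1 except with BTPRZ-T and N alone (adjusted p = 0.0503), and no member's called direction changed. The number of members called ran from 4 to 6 in BT-T against N and from 4 to 5 in BTPRZ-T against N with 1 library left out, and from 0 to 4 between the tumour groups, where the 4 came without N replicate 2. Between the tumour groups it was 1 in DESeq2, 5 in limma voom with sample quality weights (52% of all genes), 3 with those groups alone and 2 with N replicate 2 and BTPRZ-T replicates 1 and 4, the 3 lowest in genes detected, left out (24.5% of all genes); the cause was not tested. DESeq2 gave no p for Tnfrsf12a in any comparison. Over all genes 1274 were called in BT-T and 1760 in BTPRZ-T, each against N, and 112 between the tumour groups, and 624 to 6156, 647 to 8211 and 0 to 7734 in other settings (the most with sample quality weights), among them 2394, 3048 and 1217 in DESeq2 and 2030, 4855 and 2714 without N replicate 2. Removing a trend with transcript length moved the median log2 fold change of all genes from -0.10 to -0.29 in BT-T against N and from -0.03 to 0.26 between the tumour groups, and the share of higher calls there from 20.5% to 63.5%; Gja1 between the tumour groups was then -0.07. The replicate numbers are not said to pair libraries. Same-numbered libraries correlated at -0.249 to 0.239 (BT-T with N), -0.297 to 0.213 (BTPRZ-T with N) and 0.0712 to 0.315 (BTPRZ-T with BT-T), and 1 of 8, 1 of 8 and 8 of 8 correlated best with their own number. With the replicate number as a block, 4, 4 and 0 members and 945, 1160 and 1 of all genes were called.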
